A study of Mus musculus with 2 samples.

Results

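The Notch pathway was examined through 10 genes in the spinal cord of mice at postnatal day 4. They were 4 receptors (Notch1, Notch2, Notch3 and Notch4), 4 ligands (Dll1, Dll4, Jag1 and Jag2) and 2 transcription factors that act downstream (Hes1 and Hes5). The genes were taken by symbol from the 32285 genes of the count matrices, and each symbol matched 1 gene. The tissue was whole spinal cord of the FVB strain, profiled by single-cell RNA sequencing with the 10x Genomics 3′ chemistry. The SMA library came from a model of severe spinal muscular atrophy (mSmn-/-, hSMN22tg/0), and the Con library from heterozygous littermates (mSmn+/-, hSMN22tg/0). Both groups carried the human SMN transgene, and Con was therefore not wild type. Spinal cords of several animals were pooled before dissociation, so each group was 1 sample, and no test between the groups was possible. Every interval below is a 95% interval for counting error only and does not contain the spread between animals or, for levels and ratios, between cells.

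Notch receptors are single-pass membrane proteins that bind Delta-like (Dll) and Jagged (Jag) ligands on a neighbouring cell. After binding, the receptor is cut by an ADAM metalloprotease and then by gamma-secretase, and the freed intracellular part joins the DNA-binding protein RBPJ and a Mastermind-like coactivator in the nucleus. Hes1 and Hes5 are targets of this complex and encode repressors of the basic helix-loop-helix class, which hold back proneural genes. In the nervous system the pathway is known for maintaining glial progenitors and delaying oligodendrocyte maturation, and in vessels for arterial identity and for the smooth muscle coat.

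The Hes5 promoter is shown because Hes5 had the highest level of the 10 genes in astrocyte-like and in OPC-like cells and differed between the libraries in several classes. The 250 bases before its start site lie at chr4:154960673-154960922 on the plus strand (RefSeq, GRCm38.p6). Capitals mark the 7 letters GTGGGAA, the core of the RBPJ motif, on either strand (TTCCCAC is the reverse complement).
Hes5: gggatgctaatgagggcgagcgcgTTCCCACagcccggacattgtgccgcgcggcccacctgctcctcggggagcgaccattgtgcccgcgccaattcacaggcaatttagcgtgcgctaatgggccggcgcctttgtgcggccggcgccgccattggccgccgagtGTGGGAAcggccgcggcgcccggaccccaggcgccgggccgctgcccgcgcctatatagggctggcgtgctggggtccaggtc
The copies began at positions -226 and -83 from the start site, on opposite strands. Of 32851 mouse promoter windows in the RefSeq table (250 bases before to 50 after each start), 6.38% held at least 1 copy and 0.256% held 2 or more. Promoter windows were found for 9 of the 10 genes. Hes1 had none, so its promoter was not read. There were 10 windows in all because Dll1 had 2, and that of Hes5 was the only one with the 7 letters. Among the other pathway genes described below, 32 had a window and 5 of these held the letters, Hey2 with 2 copies. A match of letters is not a binding site, and the missing letters in the other windows say nothing about RBPJ there.

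In the GRCm38 annotation (GENCODE M21) all 10 genes are protein coding. Notch1 lies on chromosome 2 (26457903 to 26516663, minus strand), Notch2 on chromosome 3 (98013527 to 98150361, plus strand), Notch3 on chromosome 17 (32120820 to 32166852, minus strand) and Notch4 also on chromosome 17 (34564268 to 34588503, plus strand). Dll1 lies on chromosome 17 (15367354 to 15376872, minus strand), Dll4 on chromosome 2 (119325784 to 119335962, plus strand), Jag1 on chromosome 2 (137081456 to 137116644, minus strand) and Jag2 on chromosome 12 (112907819 to 112929776, minus strand). Hes1 lies on chromosome 16 (30064384 to 30067796, plus strand) and Hes5 on chromosome 4 (154960923 to 154962371, plus strand). Apart from microRNA genes within Notch1 and Jag2, the same-strand overlaps were with Gm42819 and Gm42820, transcript models of no assigned type inside Notch2.

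The SMA and Con matrices held 26921 and 25419 barcodes, and 8163 barcode sequences were listed in both. Of the Con barcodes with at least 5000 UMIs (unique molecular identifiers, each 1 captured RNA molecule), 7058 of 7131 (99.0%) were also listed for SMA, against 160 of 5750 (2.78%) of such SMA barcodes. Shared barcodes were therefore left out of SMA, 6509 of the 13296 SMA cells that passed the filters, which left 6787 SMA cells and 8921 Con cells with 45630633 and 59383967 UMIs and medians of 6109 and 6228 UMIs per cell. The targeted gene, Smn1, stood at 48.1 CPM (UMIs of a gene per 1e6 UMIs of the cells) in SMA and 43.8 in Con, and without erythroid-like cells the log2 ratio was 0.02 (-0.06 to 0.11). The matrices do not say which part of the gene the 3′ reads came from, so this level does not check the labels. Xist, which is transcribed from the inactive X chromosome of female cells, stood at 1.51 CPM in SMA and 528 CPM in Con, so genotype and the sex make-up of the pools cannot be told apart.

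Clustering without the Notch genes gave 33 clusters. Of these, 5 stayed unnamed and the rest formed 13 classes named after marker genes. A class carries the suffix "-like" because its name rests on markers alone. Comparison was limited to the 11 classes that reached 50 cells in both libraries. Macrophage-like cells (38 SMA and 66 Con) and neuron-like cells (43 SMA and 26 Con) were too few. Erythroid-like cells served as a reading of free RNA, since red cell precursors should hold little of these transcripts. Their levels were at or below 10.0 CPM for each gene except Hes5, which reached 16.7 CPM in SMA and 24.4 CPM in Con. The order of these 2 Hes5 levels depended on the clustering, since the log2 ratio was -0.55 as analysed and 0.90 when cells were clustered without shared barcodes. The levels were uneven among the erythroid-like clusters. The smallest of them, of 38 SMA and 74 Con cells, held 39 of the 70 SMA and 74 of the 243 Con Hes5 UMIs, at 81.0 and 73.9 CPM. It also held 1696 and 1449 CPM of summed OPC markers and 41.6 and 19.0 CPM of Notch1. The cluster of 220 SMA and 597 Con cells held 23 and 143 Hes5 UMIs, at 19.0 and 52.1 CPM, beside 1195 and 1632 CPM of summed astrocyte markers. In the cluster of 233 SMA and 580 Con cells Hes5 stood at 3.20 and 4.17 CPM and summed OPC markers at 20.4 and 25.5 CPM.

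The 10 genes were spread over the cord in distinct patterns that were alike in both libraries. Notch1 was broad, Notch2 was highest in fibroblast-like and astrocyte-like cells, Notch3 in mural-like cells (pericytes and smooth muscle), and Notch4, Dll4 and Jag2 in endothelial-like cells. Dll1 was highest in OPC-like cells (oligodendrocyte precursors) and ependymal-like cells, and Jag1 in mural-like cells. Hes5 marked astrocyte-like and OPC-like cells, whereas Hes1 was highest in Schwann-like cells and present in most classes.

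**Figure D1:**
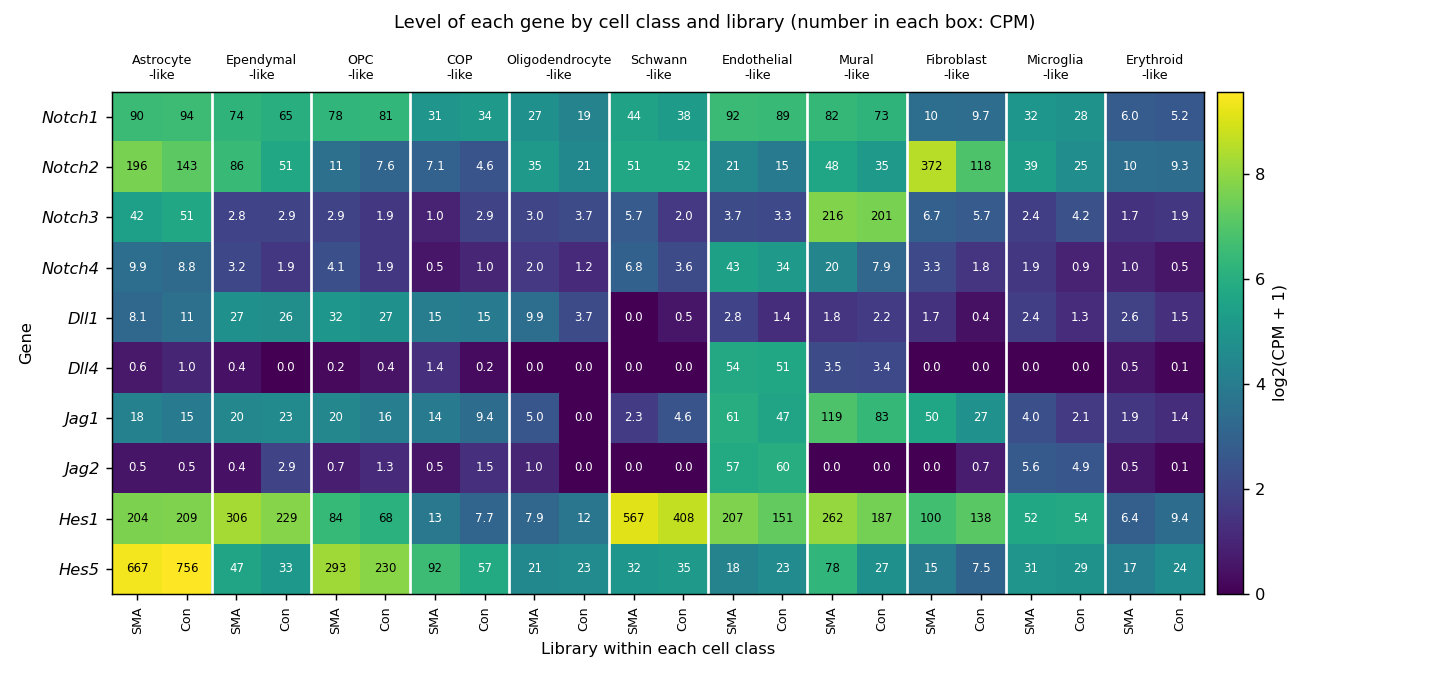
Level of the 10 genes in 11 cell classes, SMA and Con side by side; colour is log2(CPM + 1) and the number in each box is CPM. The class of highest level is the same in both libraries for each gene except Notch1 and Notch2, with Hes5 at 667 and 756 CPM in astrocyte-like cells and Notch3 at 216 and 201 CPM in mural-like cells.

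Among the receptors, Notch1 stood at 91.7 CPM in SMA and 88.8 CPM in Con in endothelial-like cells. In astrocyte-like cells it stood at 89.7 and 93.7 CPM, in OPC-like cells at 78.3 and 80.6 CPM, in mural-like cells at 81.6 and 73.1 CPM, and in ependymal-like cells at 74.4 and 64.8 CPM. The intervals of endothelial-like and astrocyte-like cells overlapped within each library, so their order is not resolved, while mural-like cells lay below astrocyte-like cells in Con alone (61.0 to 86.8 against 88.0 to 99.6 CPM). Fibroblast-like cells held 10.0 and 9.68 CPM of Notch1, not far above the erythroid-like level of 5.96 and 5.21 CPM. Notch2 gave the opposite picture, with 372 and 118 CPM in fibroblast-like cells against 10.5 and 7.64 CPM in OPC-like cells. The OPC-like level of Notch2 was near that of erythroid-like cells (10.0 and 9.33 CPM), with overlapping intervals in each library, whereas astrocyte-like cells held 196 and 143 CPM.

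Notch3, the receptor of vascular smooth muscle and pericytes, stood at 216 CPM (180 to 258) in SMA and 201 CPM (180 to 223) in Con in mural-like cells. Astrocyte-like cells followed with 41.6 and 51.2 CPM, and every other compared class was under 7 CPM in both libraries. Notch4, a receptor of endothelium, stood at 42.6 and 33.9 CPM in endothelial-like cells. Mural-like cells held 19.5 and 7.87 CPM on 11 and 14 UMIs and astrocyte-like cells 9.93 and 8.85 CPM, and their intervals overlapped in each library.

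Among the ligands, Dll4 and Jag2 were found mainly in endothelial-like cells, at 53.6 and 51.0 CPM for Dll4 and 57.2 and 60.4 CPM for Jag2. Among the other compared classes the highest level of Dll4 was 3.55 CPM (mural-like, SMA) and that of Jag2 was 5.58 CPM (microglia-like, SMA). Jag1 stood at 119 and 82.6 CPM in mural-like cells, 61.3 and 47.5 CPM in endothelial-like cells, and 50.2 and 27.2 CPM in fibroblast-like cells. Dll1, the ligand of neural progenitors, stood at 31.5 and 26.7 CPM in OPC-like cells and at 27.1 and 25.7 CPM in ependymal-like cells, with overlapping intervals in each library. Committed oligodendrocyte precursors (COP-like cells) held 15.2 and 14.6 CPM of Dll1.

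The Hes genes divided the classes. Hes5 stood at 667 and 756 CPM in astrocyte-like cells, 293 and 230 CPM in OPC-like cells and 92.4 and 57.2 CPM in COP-like cells. In Con the remaining compared classes held at most 35.1 CPM (Schwann-like), near the 24.4 CPM of erythroid-like cells. Hes1 stood at 567 and 408 CPM in Schwann-like cells, the glia of peripheral nerve, and at 306 and 229 CPM in ependymal-like cells, which line the central canal. Mural-like cells held 262 and 187 CPM of Hes1, endothelial-like cells 207 and 151 CPM, and astrocyte-like cells 204 and 209 CPM. COP-like cells (13.3 and 7.72 CPM) and oligodendrocyte-like cells (7.93 and 12.4 CPM) were close to the erythroid-like level of 6.44 and 9.43 CPM.

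Levels also varied between clusters of the same class. The main astrocyte-like cluster (led by Slc7a10, Gbx2 and Slc6a11) held 740 CPM of Hes5 in SMA and 922 CPM in Con. An astrocyte-like cluster led by 4833423E24Rik, Cidea and Gfap, the intermediate filament gene of fibrous astrocytes, held 159 and 169 CPM. Hes1 followed the same order, with 232 and 248 CPM in the first and 58.1 and 62.7 CPM in the second. Dll1 among astrocyte-like cells came mostly from another cluster, with Miat and Grk3 among its leading genes, at 60.8 CPM in SMA and 92.6 CPM in Con, against 1.83 and 4.00 CPM in the main cluster. That cluster also held 2363 and 2299 CPM of summed OPC markers, against 689 and 822 CPM in the main cluster, and what part these markers play in its Dll1 was not tested.

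The difference between the libraries was then read within each class. A gene was called where it had at least 30 UMIs over both libraries and its level differed at least 2-fold either way. Of the 110 pairs of gene and class, 65 had 30 UMIs, and 4 of them (6.15%) were called, all higher in SMA: Notch2 and Hes5 in fibroblast-like cells, Hes5 in mural-like cells and Notch4 in OPC-like cells. Over all genes and the same classes 4.64% of pairs were called, so the share among the Notch genes was near the background. The share of all genes called was 20.9% in fibroblast-like cells, 6.32% in mural-like cells and 1.31% in OPC-like cells. It was 2.01% in astrocyte-like cells, 2.19% in COP-like cells, 3.88% in endothelial-like cells, 2.55% in ependymal-like cells, 2.24% in microglia-like cells, 3.72% in oligodendrocyte-like cells, 5.65% in Schwann-like cells and 5.62% in erythroid-like cells, where none of the 10 genes was called. Of the 65 pairs, 47 were higher and 18 lower in SMA, and 23 had an interval that did not include 0. Over all genes the share higher in SMA ran from 40.9% (astrocyte-like and erythroid-like) to 58.8% (microglia-like) by class, the share with an interval above 0 from 5.33% to 17.0% and the share with one below 0 from 6.26% to 18.5%. These and the later shares of intervals were not matched for UMI number, on which the width of an interval depends.

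**Figure D2:**
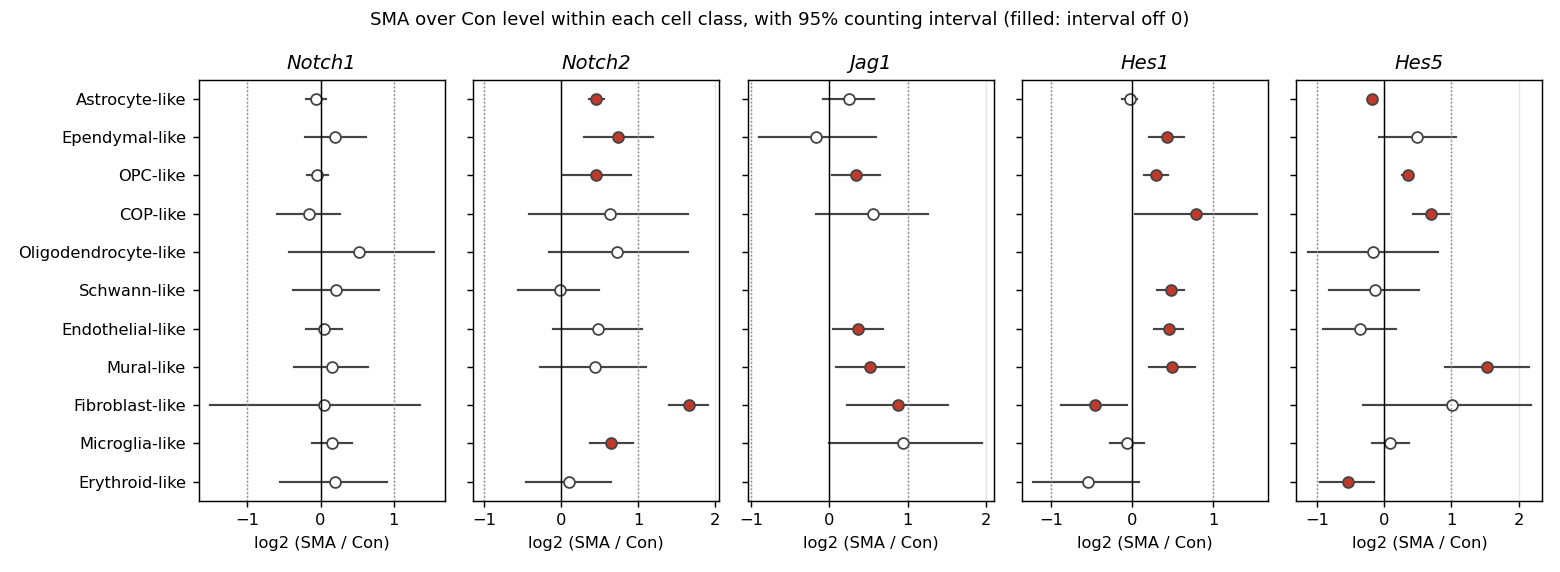
Log2 ratio of SMA over Con for 5 genes in each class with at least 30 UMIs, with 95% counting intervals; filled points have an interval off 0 and dotted lines mark 2-fold. Notch2 points lie right of 0 in 10 of 11 classes, Notch1 intervals include 0 in all 11, and Hes5 points lie on both sides.

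Notch1 did not differ beyond counting error in any of the 11 classes. Its log2 ratios ran from -0.15 to 0.53 with a median of 0.15, and in OPC-like cells, with 843 and 760 UMIs, the ratio was -0.04 (-0.19 to 0.10). Notch2 was higher in SMA in 10 of 11 classes and stood at a log2 ratio of -0.02 in the other (Schwann-like). In astrocyte-like cells it held 1699 SMA and 1567 Con UMIs, with a log2 ratio of 0.46 (0.36 to 0.56). Ependymal-like cells had a ratio of 0.73 (0.30 to 1.19), microglia-like cells one of 0.65 (0.38 to 0.93) and OPC-like cells one of 0.46 (0.02 to 0.91). Within the astrocyte-like class Notch2 was higher in SMA in 5 of 5 clusters, at 224 against 167 CPM in the main one, and the interval lay above 0 in 2 of them. Clusters share their library and are not replicates. Of the 4562 genes measured in all 11 classes, 10.6% were higher in SMA in 10 or more classes and 11.2% had an interval above 0 in 5 or more, as Notch2 did.

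In fibroblast-like cells the Notch2 level was 372 CPM on 222 UMIs in SMA and 118 CPM on 328 UMIs in Con, a log2 ratio of 1.66 (1.41 to 1.91). The libraries did not hold the same fibroblast-like cells: a cluster led by Mfap5, Timp1 and Ptx3 held 432 of the 600 Con cells and 2 of the 64 SMA cells. Within the other cluster (62 SMA and 168 Con cells, led by Mfap4, Slc6a13 and A2m) Notch2 stood at 379 and 199 CPM, a log2 ratio of 0.93 (0.67 to 1.19), which is under 2-fold. In that cluster Hes1 was lower in SMA, at 103 against 204 CPM (-0.99, -1.41 to -0.58), and Jag1 was higher, at 51.5 against 30.0 CPM (0.78, 0.06 to 1.49). Hes5 in fibroblast-like cells was called on 9 and 21 UMIs, with an interval of -0.31 to 2.19, and its ratio was 0.22 in the shared cluster. Summed astrocyte markers were 1749 and 725 CPM in fibroblast-like cells and 1769 and 1296 CPM in the shared cluster. UMIs of 2 or more of them were held by 96.9% of SMA and 28.7% of Con fibroblast-like cells. Such shares rise with depth, and the median depths of these cells were 8734 and 3481 UMIs. The part of astrocyte markers in the fibroblast-like differences was not tested. In microglia-like cells Notch2 was higher in SMA in both clusters with at least 50 cells in each library, at 34.7 against 24.3 CPM and at 54.6 against 26.5 CPM. In the smaller clusters it stood at 44.9 and 36.0 CPM, with overlapping intervals, and at 38.6 and 16.5 CPM on 18 and 6 UMIs. The second of the larger clusters, led by Crybb1, Csf2rb and Osm, also held 172 and 179 CPM of Hes5, beside summed astrocyte markers of 2409 and 2808 CPM, against 432 and 401 CPM in the first. Its summed OPC markers were 2038 and 2141 CPM, against 55.0 and 69.9 CPM in the first. When cells with UMIs of 2 or more astrocyte markers were left out, which removed 62.0% of SMA and 62.3% of Con microglia-like cells, the Notch2 ratio in this class was 0.37 (-0.11 to 0.86).

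Along the oligodendrocyte lineage Notch1, Dll1 and Hes5 stepped down from OPC-like to COP-like cells in both libraries, while Notch2 was higher at the end of the lineage. Notch1 went from 78.3 and 80.6 CPM in OPC-like cells to 31.0 and 34.4 CPM in COP-like cells and 26.8 and 18.5 CPM in oligodendrocyte-like cells. The intervals of the last of these steps overlapped in each library. Hes5 went from 293 and 230 CPM to 92.4 and 57.2 CPM and then to 20.8 and 23.5 CPM. The last was near the 16.7 and 24.4 CPM of the whole erythroid-like class and above the 3.20 and 4.17 CPM of its cluster with least Hes5. Dll1 went from 31.5 and 26.7 CPM to 15.2 and 14.6 CPM, and oligodendrocyte-like cells held 10 and 3 UMIs of it. Notch2 went from 10.5 and 7.64 CPM to 7.15 and 4.59 CPM and then to 34.7 CPM (24.2 to 48.2) and 21.0 CPM (12.2 to 33.7), the last on 35 and 17 UMIs. Oligodendrocyte-like cells differed between the libraries, with median depths of 12157 UMIs in SMA and 3006 in Con. Their summed erythroid markers were 5001 and 19156 CPM. Hes1 was lower in COP-like than in OPC-like cells, and its COP-like and oligodendrocyte-like intervals overlapped in each library. A cluster led by Ddc, Cdk18 and 9630013A20Rik, left unnamed because it held markers of both COP and oligodendrocytes, had 2.89 CPM of Hes5 in SMA (2 UMIs) and 16.0 CPM in Con.

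Hes5 was higher in SMA in the early lineage. OPC-like cells held 3153 UMIs of Hes5 in SMA and 2171 in Con, a log2 ratio of 0.35 (0.27 to 0.43), and COP-like cells held 194 and 274, a ratio of 0.69 (0.42 to 0.96). Hes1 was also higher, at 83.5 against 68.4 CPM in OPC-like cells (0.29, 0.14 to 0.44) and 13.3 against 7.72 CPM in COP-like cells (0.79, 0.03 to 1.54). The COP-like levels of Hes1 rested on 28 and 37 UMIs. They were close to the erythroid-like 6.44 and 9.43 CPM, with overlapping intervals in each library. In OPC-like cells the ligand Jag1 stood at 20.4 and 16.1 CPM (0.34, 0.04 to 0.65) and Dll1 at 31.5 and 26.7 CPM (0.24, 0.00 to 0.48). For Dll1 the lower bound was just under 0. In all, 5 of the 8 Notch genes measured in OPC-like cells had an interval above 0 and none had one below. Of all genes of that class 13.4% had one above and 16.1% one below. Among the 5 was Notch2 (0.46, 0.02 to 0.91), at 10.5 and 7.64 CPM near the erythroid-like level of 10.0 and 9.33 CPM. Notch4 was called in OPC-like cells on 44 and 18 UMIs, at 4.09 and 1.91 CPM.

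The OPC-like class consisted of a large cluster led by Pnlip, Tac1 and Myt1 and 3 clusters led by genes of cell division. Hes5 stood at 329 CPM in SMA and 274 CPM in Con in the large cluster. It stood at 304 and 239 CPM in the cluster led by mitotic genes (Ccnb1, Cenpf and Cdc20), 235 and 172 CPM in the one led by replication genes (Ung, Cdc6 and Rmi2), and 193 and 159 CPM in the one led by histone genes. All 4 clusters had a log2 ratio for Hes5 between 0.27 and 0.45 with an interval above 0, which held for 2.14% of 7295 genes measured in all 4. That share was not matched for UMI number. For Hes5 this ran from 257 SMA and 203 Con UMIs in the histone-led cluster to 2076 and 1344 in the large one. Clusters share their library and are not replicates. Hes1, Dll1 and Jag1 were also higher in SMA in all 4 clusters, which held for 17.1% of genes. Notch1 was lower in 3 of the 4, with every interval including 0. Summed OPC markers were 4426 and 4720 CPM and summed astrocyte markers 1160 and 1198 CPM in the class, both lower in SMA. Summed markers of later stages were lower in SMA too. Oligodendrocyte markers stood at 1147 and 1770 CPM and COP markers at 1113 and 1330 CPM in OPC-like cells. In COP-like cells oligodendrocyte markers stood at 7422 and 10448 CPM and COP markers at 9586 and 12168 CPM. The part of these sums in the Hes5 ratios was not tested.

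**Figure D3:**
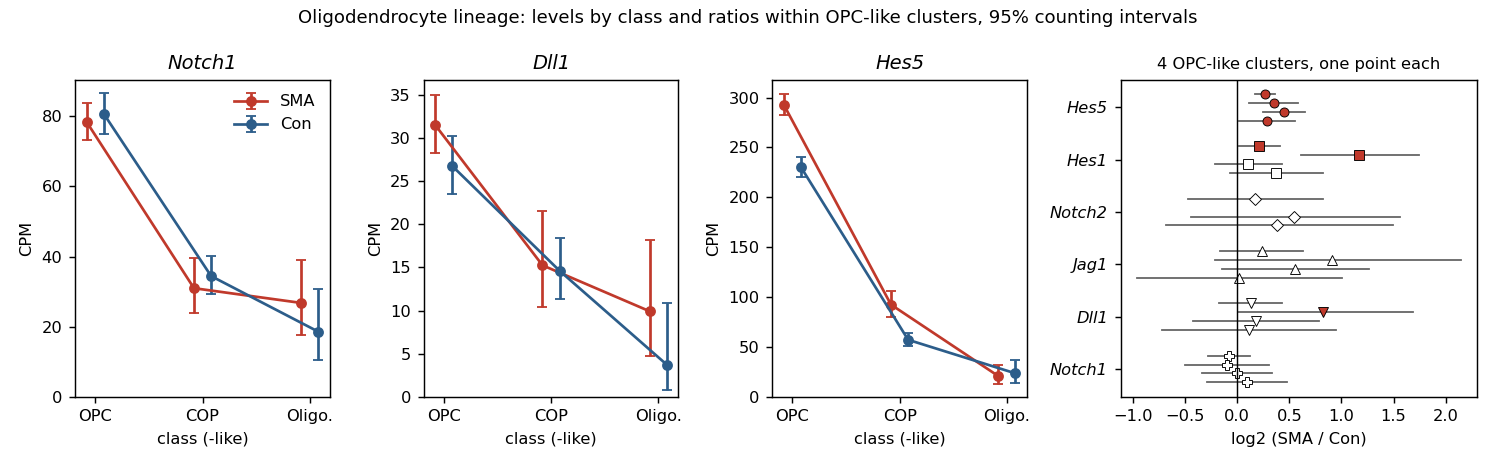
Levels (CPM) of Notch1, Dll1 and Hes5 in OPC-like, COP-like and oligodendrocyte-like cells of each library, and log2 ratios of SMA over Con for 6 genes in the 4 OPC-like clusters (one point per cluster); bars are 95% counting intervals and filled points have an interval off 0. Hes5 falls from 293 and 230 CPM to 20.8 and 23.5 CPM along the lineage, and its 4 cluster points lie between 0.27 and 0.45.

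Shares of cells gave the same order for Hes5. After each cell was thinned to 1000 UMIs, 21.7% (19.8 to 23.6%) of SMA and 18.6% (16.7 to 20.6%) of Con OPC-like cells held a Hes5 UMI, and the unthinned shares were 55.7% and 49.5%. In erythroid-like cells, with median depths of 9203 and 8745 UMIs against 5592 and 5736 in OPC-like cells, the thinned shares were 1.69% and 2.61%. OPC-like cells with a Dll1 UMI held a Hes5 UMI in 14 of 58 SMA cells (24.1%) and 9 of 41 Con cells (21.95%). Those without a Dll1 UMI held one in 21.6% and 18.5%, inside the wide intervals of the former (13.9 to 37.2% and 10.6 to 37.6%). At this depth a difference in Hes5 between cells with and without Dll1 was not detectable.

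In astrocyte-like cells 3 of the 8 measured genes had an interval off 0, 1 above and 2 below, where 10.2% of all genes of that class had one above and 18.5% one below. Notch2 was higher in SMA (above), while Notch3 was lower at 41.6 against 51.2 CPM (-0.30, -0.49 to -0.11) and Hes5 was lower at 667 against 756 CPM (-0.18, -0.23 to -0.13). The lower Notch3 held in 3 of 3 clusters with enough UMIs. The lower Hes5 held in the main cluster, at 740 against 922 CPM (-0.32, -0.37 to -0.26), and in 3 of 5 clusters. Clusters were formed with the shared barcodes still in. A shallow astrocyte-like cluster led by Paqr6, Fam181a and Btbd17, which kept 85 of its 1061 SMA cells once they were left out, went the other way, with 564 against 308 CPM on 172 and 67 UMIs (0.88, 0.46 to 1.31). In that cluster summed erythroid markers were 6946 CPM in SMA and 55555 CPM in Con. Over the class erythroid markers were 1807 and 9690 CPM and oligodendrocyte markers 990 and 1440 CPM. Astrocyte markers went the other way, at 12944.5 and 12438.8 CPM. The part of these sums in the Hes5 ratios was not tested. Hes1 in astrocyte-like cells stood at 204 and 209 CPM (-0.03, -0.12 to 0.06).

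The Hes5 ratio therefore had opposite signs in astrocyte-like and OPC-like cells of the same libraries, with intervals that did not meet. Ependymal-like cells had 46.6 and 33.4 CPM of Hes5 (0.48, -0.07 to 1.07) and 306 and 229 CPM of Hes1 (0.42, 0.21 to 0.64). In Schwann-like cells Hes1 was higher in SMA (0.47, 0.31 to 0.64), a ratio that was 0.22 with shared barcodes kept and 0.12 with equal weight per cell. Over all cells other than erythroid-like ones, Hes5 stood at 235 and 230 CPM, a log2 ratio of 0.03 (-0.01 to 0.07), and Notch3 at 14.0 and 21.0 CPM, a ratio of -0.58, although mural-like cells themselves had a ratio of 0.11 (-0.20 to 0.41). Mural-like cells were 1.37% of SMA and 2.94% of Con cells, and class shares differ between these libraries without a replicate.

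In vessel cells Jag2 and Notch1 were higher on the arterial side of the endothelium. Endothelial-like cells with UMIs of at least 2 arterial genes (of Gja4, Gja5, Sox17, Bmx, Sema3g, Gkn3 and Mgp) were set against those with none, leaving out 144 SMA and 199 Con cells with exactly 1. The first are a range of cells, not a type, and were deeper, with median depths of 7442 against 6011 UMIs in SMA and 8033 against 5276 in Con. Jag2 stood at 85.8 against 40.8 CPM in SMA and at 100 against 37.2 CPM in Con. Notch1 stood at 134 against 75.1 CPM in SMA and 112 against 63.2 CPM in Con. Those 4 pairs of intervals did not overlap. Jag1 stood at 70.4 against 26.0 CPM in Con, without overlap, and at 81.5 (61.7 to 106) against 57.1 CPM (39.8 to 79.4) in SMA, with overlap. Notch2 ran the other way, with 8.58 against 44.1 CPM in SMA, without overlap, and 7.41 against 18.6 CPM in Con, with overlap. Hes5, high in astrocyte-like cells as Notch2 is, stood at 4.29 against 49.0 CPM in SMA and 29.6 against 33.4 CPM in Con, and the part of astrocyte RNA in the Notch2 values was not tested. Dll4 was 42.9 against 62.0 CPM in SMA and 63.7 against 33.4 CPM in Con, with overlapping intervals in each library.

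The endothelial-like cluster led by Gja4, Slco1a4 and Gkn3 (54 SMA and 81 Con cells) had 109 and 168 CPM of Jag2 and 171 and 140 CPM of Notch1. The other endothelial-like cluster, led by Ccl21a, Slc38a5 and Prnd, had 47.6 and 40.3 CPM of Jag2 and 77.0 and 79.2 CPM of Notch1. Between the libraries, Jag2 in the first cluster was lower in SMA (-0.63, -1.19 to -0.09), whereas in the second Jag1 (0.61, 0.22 to 1.00), Notch4 (0.50, 0.04 to 0.97) and Hes1 (0.41, 0.22 to 0.59) were higher. Over the class Jag1 had a ratio of 0.37 (0.04 to 0.69), which turned to -0.26 (-0.83 to 0.30) without the cells that held 2 or more astrocyte markers. Hes1 was higher in SMA in the first cluster too, at 143 against 79.0 CPM (0.85, 0.26 to 1.45). Over the whole endothelial-like class Hes1 had a ratio of 0.45 (0.27 to 0.62), while Notch1, Dll4 and Jag2 did not differ beyond counting error (0.05, 0.07 and -0.08). In this class summed erythroid markers were 11644 and 34928 CPM, oligodendrocyte markers 661 and 1116 CPM and neutrophil markers 81.2 and 1.10 CPM. Their part in the Hes1 ratio was not tested.

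**Figure D4:**
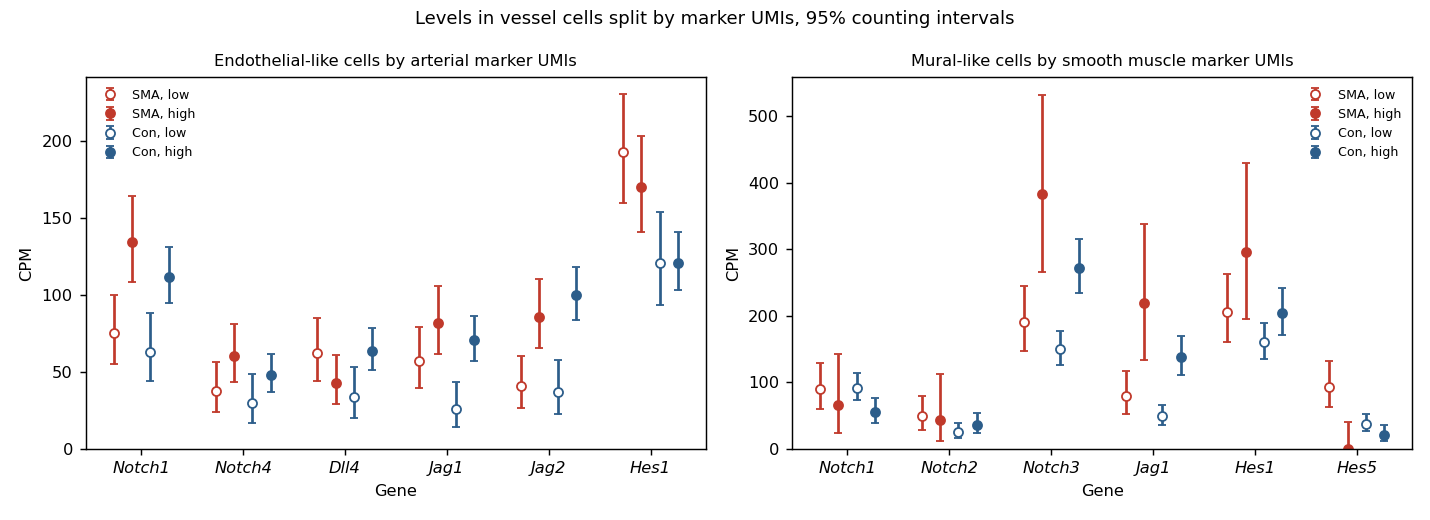
Levels (CPM, with 95% counting intervals) of 6 genes in endothelial-like cells with many (filled) or no (open) arterial marker genes, and of 6 genes in mural-like cells with many (filled) or few (open) smooth muscle marker genes, in SMA (red) and Con (blue). Jag2 and Notch1 are higher in the arterial cells and Notch3 and Jag1 in the smooth muscle cells of both libraries.

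Mural-like cells with UMIs of at least 3 smooth muscle genes (of Acta2, Tagln, Myh11 and Cnn1) numbered 12 in SMA and 82 in Con, and those with at most 1 numbered 63 and 151, with 18 and 29 cells between. The first were also deeper, with medians of 6855 against 4628 UMIs in SMA and 7586 against 5243 UMIs in Con. Notch3 stood at 383 CPM (266 to 532) against 191 CPM in SMA and at 272 against 149 CPM in Con. Jag1, the ligand that smooth muscle shares with endothelium, stood at 219 against 80.1 CPM in SMA and 138 against 49.1 CPM in Con. Both genes were thus higher in the smooth muscle cells of each library, and the intervals did not overlap. In the whole class Jag1 was higher in SMA (0.52, 0.09 to 0.95), as was Hes1 (0.49, 0.20 to 0.78). The 2 ranges of cells made up different shares of the class in the 2 libraries.

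Hes5 in mural-like cells stood at 78.0 CPM on 44 UMIs in SMA and 27.0 CPM on 48 UMIs in Con, a log2 ratio of 1.53 (0.91 to 2.15). Those UMIs lay in few cells: 11 of 93 SMA cells (11.8%, 6.05 to 20.2%) and 22 of 262 Con cells (8.40%, 5.34 to 12.4%) held any, beside 8.35% and 9.19% of erythroid-like cells, which differ in depth. Thinned to 1000 UMIs a cell, 5.38% (1.77 to 12.1%) of SMA and 1.92% (0.63 to 4.43%) of Con mural-like cells held any, against 1.69% (0.73 to 3.31%) and 2.61% (1.77 to 3.70%) of erythroid-like cells. In each library 3 cells held 59.1% and 56.3% of the UMIs, and without them the levels were 33.6 and 11.97 CPM. Summed astrocyte markers in mural-like cells were 1447 CPM in SMA and 1026 CPM in Con, and their part in this difference was not tested. The cells with at least 3 smooth muscle genes held 0 Hes5 UMIs in SMA (12 cells) and 14 in Con.

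The rest of the pathway was described with a list of 40 genes, all of which were in the matrices. Of 269 pairs of gene and class with 30 UMIs, 11 (4.09%) were called, 3 higher and 8 lower in SMA, where 4.64% of all pairs of gene and class were called. The share is thus near the background, and the called genes are given as values. For 2 of them, Psen2 in erythroid-like cells on 6 and 29 UMIs (-1.02, -2.58 to 0.27) and Poglut1 in fibroblast-like cells on 5 and 52 UMIs (-1.16, -2.84 to 0.16), the interval included 0. COP-like, endothelial-like, ependymal-like and microglia-like cells had none. Of the receptor-processing and nuclear partners, Adam10, the metalloprotease that makes the first cut, was higher in mural-like cells at 90.5 against 43.3 CPM (1.06, 0.52 to 1.59). Maml1, a Mastermind-like coactivator, was higher in OPC-like cells at 7.90 against 3.71 CPM (1.09, 0.50 to 1.70). The highest level of that group was that of Psenen, a gamma-secretase subunit, at 310 and 272 CPM over all cells other than erythroid-like ones. Of the modifiers, Mib1, a ubiquitin ligase that activates ligands, stood at 42.2 and 33.8 CPM over these cells and was lower in SMA mural-like cells at 17.7 against 36.0 CPM on 10 and 64 UMIs (-1.02, -2.15 to -0.05). Itch, also a ubiquitin ligase, stood at 40.2 and 40.3 CPM, so it was the highest of that group in Con and Mib1 in SMA. Numbl, related to the Notch inhibitor Numb, was lower in fibroblast-like cells at 18.4 against 49.5 CPM and in Schwann-like cells on 2 and 28 UMIs.

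Of the other ligands, Dlk1, a non-canonical ligand known from growth control, was lower in SMA astrocyte-like cells at 17.3 against 39.5 CPM (-1.19, -1.47 to -0.92) and in mural-like cells at 72.7 against 151 CPM (-1.06, -1.57 to -0.58). In fibroblast-like cells, where its level was 544 and 588 CPM, the Dlk1 ratio was -0.11. Dner stood at 82.7 and 76.0 CPM over all cells other than erythroid-like ones and was lower in SMA oligodendrocyte-like cells on 12 and 21 UMIs (-1.13, -2.28 to -0.04). The median depths of oligodendrocyte-like cells were 12157 UMIs in SMA and 3006 in Con. Of the other targets, Hey1 was higher in SMA mural-like cells on 17 and 26 UMIs (1.04, 0.07 to 1.98). Nrarp, a target that feeds back on the Notch complex, had the highest level of the targets at 84.0 and 75.5 CPM.

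The genes whose levels ran most like each of the 10 over the 22 points of class and library were ranked by Pearson's r of log2(CPM + 10) among 10891 genes. These points share libraries and depth, and the values are a description. Heyl, a Notch target of the Hey family, was second for Notch3 (r = 0.94) after 4833422C13Rik (0.98), followed by Plce1 (0.94). Nrarp was second for Notch1 (0.87), between Cds2 (0.89) and Nacc1 (0.86). For Jag2 the first were the endothelial genes Gimap1, Pecam1 and Icam2 (0.995, 0.990 and 0.987), and for Dll4 Nostrin, Mecom and Cyyr1 (each 0.99). Notch4 was nearest to Ccdc141, Epas1 and Foxq1 (0.94, 0.92 and 0.90). Jag1 was nearest to Itpr1, Tgfb1i1 and Oaz2 (0.95, 0.93 and 0.92) and Dll1 to Lhfpl4, Nudt10 and Nap1l5 (0.96, 0.96 and 0.95). Hes5 was nearest to Tmie, Gabbr2 and Fabp7 (each 0.96), Fabp7 being a marker of radial glia and immature astrocytes. Hes1 was nearest to Plpp1, Serhl and Vim (0.91, 0.91 and 0.90), and Notch2 to Acsf2, Cmbl and Gjb6 (0.88, 0.88 and 0.86).

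Among the 10 genes themselves the pairs most alike were Dll4 with Jag2 (r = 0.95) and Dll4 with Notch4 (0.87). Hes1 and Hes5 ran apart (0.18), and so did Notch1 and Notch2 (0.05). The r of Hes5 was 0.58 with Notch1 and 0.11 with Notch2, and that of Hes1 was 0.61 with Notch1 and 0.56 with Notch2.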

How the data were processed

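Per the labels, libraries were made with the 10x Genomics 3′ version 3 kit, and the submitters' processing notes name Cell Ranger, Seurat 3.2.2 and the mm10 build. The deposited matrices hold raw UMI counts per gene and barcode, which the authors did not normalize. Cells with 200 to 4000 genes and at most 10% mitochondrial UMIs were kept. Doublets were treated by the 4000-gene limit alone, and a cluster of 1335 Con and 0 SMA cells with ribosomal genes over 30% of UMIs was removed. Cells were log-normalized to 10000 UMIs and clustered over 2000 variable genes, 30 principal components and 20 neighbours (Louvain, resolution 1) without the Notch, Smn1, sex-linked, ribosomal and mitochondrial genes, using numpy 2.4.6, scipy 1.17.1, scikit-learn 1.9.0 and igraph 0.11.9. Clusters were named from fixed markers. UMIs were summed per class and library and divided by the class total (CPM). A 3′ count does not scale with transcript length. Levels have exact Poisson intervals, ratios exact conditional binomial intervals and shares exact Clopper-Pearson intervals, all at 95%. UMIs of shared barcodes were left out of SMA. The interval and call rule were tested on simulated Poisson counts, which hold no spread between cells or animals. Besides the 10 genes, the text names list genes at least 2-fold apart with an interval off 0, the gene of highest level of each subgroup and the 3 genes most like each Notch gene. The named gene of 1 subgroup is not reported here. The genes and lists were chosen with earlier results of these data known.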

Additional observations from a re-analysis of the deposited data

How the results depend on the processing

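The number of gene and class pairs at least 2-fold apart was 4 of 65. It was 7 of 72 when shared barcodes were kept in SMA and 7 of 70 at clustering resolution 0.5. It was 7 of 64 when cells were clustered without the shared barcodes and 7 of 65 with equal weight per cell. It was 1 of 46 with at least 100 UMIs per pair and 10 of 83 with at least 10 UMIs, since fewer or more pairs were read. The share of all genes called under the alternatives is not given, so these counts cannot be set against a background. The count was 3 to 5 under the other 5 alternatives (a shared barcode kept in its deeper library, cells with at least 5000 UMIs, a mitochondrial limit of 20%, resolution 2, and centring on the median gene). Hes5 in OPC-like cells kept an interval above 0 but was 0.21 at resolution 2 and 0.26 when clustered without shared barcodes, and in COP-like cells it was 1.09 in the latter. Hes5 in erythroid-like cells went from -0.55 to 0.90 when clustered without shared barcodes. Notch2 in fibroblast-like cells was 1.25 in cells with at least 5000 UMIs, 2.15 with equal weight per cell and, in an alternative chosen after seeing the data, 0.93 within the cluster that both libraries share. Hes1 in Schwann-like cells was 0.22 with shared barcodes kept and 0.12 with equal weight per cell. Leaving out cells with 2 or more astrocyte markers, also chosen after seeing the data, removed 61.3% to 64.5% of endothelial-like and about as many microglia-like cells, and put Notch2 in microglia-like cells at 0.37 and Jag1 in endothelial-like cells at -0.26 (-0.83 to 0.30) in place of 0.37. Of the 15 pairs of gene and class in these classes, 10 kept their sign and 6 left the counting interval of the value they replace. The cause of these shifts was not tested. Shares of cells rise with the number of UMIs kept: 76 of 77 were higher when thinned to 2000 UMIs and 77 of 77 when not thinned. No paired analysis was possible because each group holds 1 library.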
